A study of Homo sapiens with 11 samples.

Results

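The 3 libraries that carry replicate number 1 (siSCR 1, si1 1 and si2 1) were set against the 8 libraries that carry other numbers, out of 11 in all, with the siRNA group kept as a term. They were picked by the number in the library name alone, not by any measured value. All 11 are RNA sequencing libraries of 769-P, an established human line from a clear-cell renal carcinoma. Every culture was plated in 6-well dishes in DMEM, treated for 48 h with an siRNA labelled 20 µM in RNAiMAX and lysed for total RNA, so the transfection itself is shared by the controls. The control siRNA group (siSCR) is labelled wild-type and holds number 1 and 3 others. The groups given the first siRNA against AKR1A1 (si1, number 1 and 2 others) and the second (si2, number 1 and 3 others) are labelled AKR1A1-/-, although the protocol describes a transient siRNA. The labels do not say whether numbers stand for separate cultures, or whether equal numbers in different groups share a day or batch, so a p-value here measures the spread among these libraries and nothing more. The design therefore allows one question: which transcripts separate number 1 from its group mates, and whether they do so in all 3 groups.

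Proliferating cells express 2 successive waves of cell cycle transcripts. Genes for DNA replication are switched on by E2F factors as cells enter S phase, and genes for the mitotic machinery follow in G2, many through CCAAT boxes and a CHR element (cell cycle genes homology region) that the DREAM and MuvB complexes read. Activated p53 raises the kinase inhibitor p21, encoded by CDKN1A, and through it both waves fall. Mitochondrial DNA encodes subunits of respiratory complexes I, III, IV and V, whereas the remaining subunits and the mitochondrial ribosomal proteins are encoded in the nucleus.

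Reads counted on genes ranged from 2108546 to 5939514 per library. The number 1 libraries held 3836109 reads in siSCR against 2271348 to 2965494 in its group mates, and 3880155 in si1 against 2108546 and 2189728. In si2 number 1 held 3512868, within the 2958944 to 5939514 of its mates. At a common depth of 2108546 reads, number 1 showed a read on 13638, 13445 and 13430 genes in siSCR, si1 and si2, and si1 2 stood apart at 11609. Its mate si1 3 had 13163. The 6 other libraries lay between 13086 and 13459. The kidney transcription factor PAX8 lay between 711 and 1149 normalized counts in every library, while the clear-cell marker CA9 and the proximal tubule genes HNF4A and SLC5A2 had no read anywhere. Markers of other cells were low: COL1A2, LUM and POSTN (fibroblasts), CD3D and CD3E (T lymphocytes) and PECAM1, CDH5 and VWF (endothelium) had no read. The summed level of the 11 fibroblast markers was 71.4 in siSCR 1 against 37.7 to 61.5 in its mates, 35.1 in si1 1 against 25.5 to 37.5, and 103 in si2 1 against 65.1 to 87.6. For the 12 leukocyte markers, nearly all from CD68 (85.8% of its exon length lies under another gene), it was 114 against 60.1 to 96.8, 86.9 against 33.1 to 47.2 and 88.4 against 39.9 to 85.5.

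**Figure D1:**
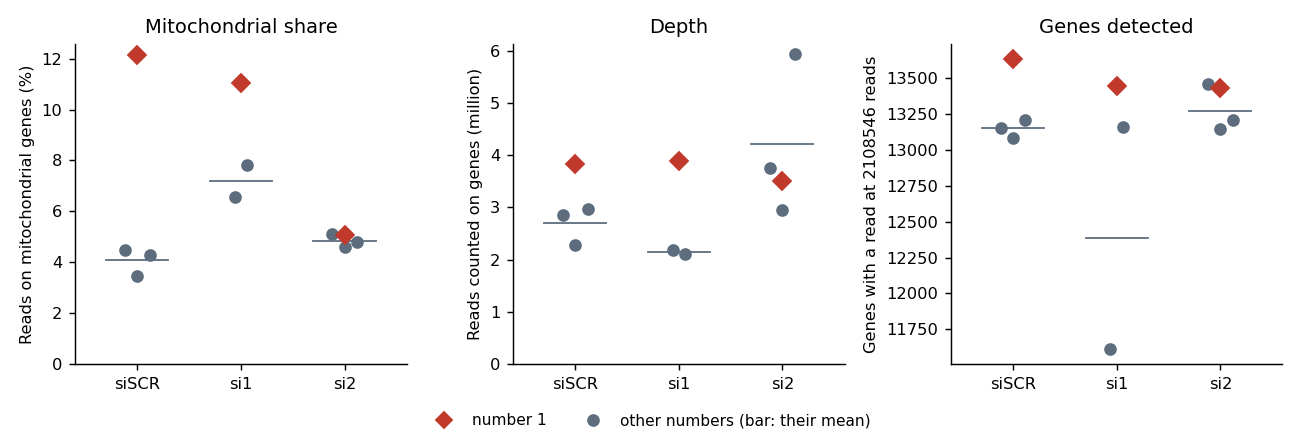
Share of reads on mitochondrially encoded genes (percent), depth in reads counted on genes and genes with a read at a common depth, by siRNA group. Red diamonds are the number 1 libraries, grey points the other libraries and bars the means of the latter; the gene axis does not start at 0. Number 1 stands above its mates in mitochondrial share and depth in siSCR and si1 and among them in si2.

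AKR1A1, the aldehyde reductase targeted by both siRNAs, was measured first as a check of the labels. In siSCR number 1 had a normalized count of 390, against 256, 200 and 242 in numbers 2 to 4. In si1 number 1 had 81.7, against 23.6 and 45.1, and in si2 56.6, against 32.1, 48.3 and 46.1. Every siRNA library thus lay below every control library. Number 1 was the highest library of each group, by 0.81 on the log2 scale over the groups (SE 0.24; unadjusted p = 0.00642, limma adjusted p = 0.168), and this difference was not called. On GRCh38 its gene, ENSG00000117448, spans bases 45550543 to 45570049 of chromosome 1.

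Across all 3 groups no transcript separated number 1 from the other numbers at the threshold used throughout, a Benjamini-Hochberg adjusted p under 0.05 from limma. Of 10760 genes tested, 0 were called (0%), although 1005 were lower (9.34%) and 932 higher (8.66%) at an unadjusted p under 0.05. In 630 genes (5.86%) number 1 was the lowest library of all 3 groups, and in 640 (5.95%) the highest. limma with a mean trend called 140 genes and voom weights 340, and the unweighted mean of the 3 within-group differences gave 226. Without si2 1 the count was 420, but number 1 then remains only in siSCR and si1. Counts within single groups were unequal. Within siSCR, 228 genes were lower in number 1 (2.12%) and 143 higher (1.33%). Within si1, 10 were lower (0.0929%) and 0 higher (0%; 587 higher at an unadjusted p under 0.05). Within si2, 0 were called (0%; 410 at an unadjusted p under 0.05, 0 by limma-trend and 6 by voom weights). Each of these contrasts sets a single library against 2 or 3, with the spread taken from the libraries of all groups that have mates, so the lone library is assumed to vary as they do. The 371 calls within siSCR became 48, 75 or 104 without siSCR 2, 3 or 4, 239 or 140 without si2 2 or si2 4, and 830 without si1 2 or si1 3. The 10 within si1 became 1 to 5 without siSCR 2, 3 or 4 or si2 2, 3 or 4. Without si1 2 or si1 3 that contrast sets 1 library against 1, with no spread from si1, so no count is given.

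Of the 371 genes called within siSCR, number 1 of si1 also lay outside its mates on the same side for 197 of the 228 lower and 112 of the 143 higher. Number 1 of si1 was lowest in 32.6% of all genes tested and highest in 34.5%. In si2 the corresponding counts were 71 of 228 and 45 of 143, against 26.1% and 27.2% of all genes. The median effect of number 1 on the 228 lower genes was -0.92 in si1 and -0.03 in si2, and on the 143 higher genes 0.48 and 0.04 (log2). The 10 genes called within si1 were CDK1, CENPE, NCAPG, KIF20A, CDCA3 and DEPDC1 of the mitotic programme, XRCC2 of homologous recombination, NRG4, LINC00488 and ENSG00000187951. Of them, 8 were also called within siSCR, all 8 lower in both. Across the 10760 genes, Pearson's r between the number 1 effects was 0.39 for siSCR and si1, 0.10 for siSCR and si2 and 0.10 for si1 and si2, as a description over genes. Deviations from the group mean correlated as much between siSCR 1 and si2 2, at 0.1047, and pairs with different numbers reached 0.115.

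**Figure D2:**
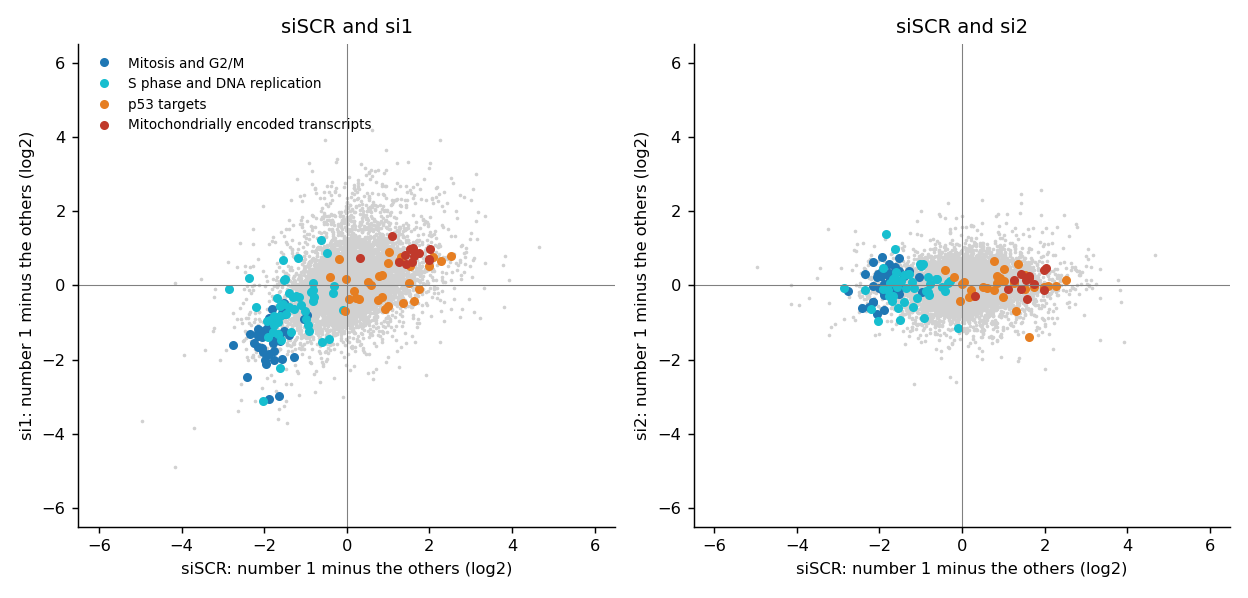
Number 1 minus the mean of its group mates (log2) for each tested gene, with siSCR on the horizontal axis and si1 (left) or si2 (right) on the vertical axis; coloured points are members of 4 gene lists. Mitosis genes sit at the lower left in siSCR and si1, with medians of -1.85 and -1.37, and around 0 in si2.

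Mitotic genes had the widest median difference of the lists within siSCR and over the 3 groups together, though not within si1 or si2. All 40 members were tested, and within siSCR number 1 was the lowest library for 40 of 40, against 35.5% of all genes. Of them 32 were called lower (2.12% over all genes) and 0 higher. The median difference was -1.85 on the log2 scale, beside 0.02 over all genes. Within si1 number 1 was lowest for 39 of 40 (32.6% over all genes), with a median of -1.37 (0.03 over all genes). There 4 were called lower (0.0929% over all genes). At an unadjusted p under 0.05, 37 were lower, beside 715 of 10760 over all genes. Within si2 number 1 was lowest for 11 (26.1% over all genes) and highest for 17 of 40 (27.2%). The median in si2 was 0.06 (0.00 over all genes). Over the 3 groups together the median was -1.05, 37 of 40 were lower at an unadjusted p under 0.05 (9.34% over all genes) and 0 were called. Leaving out siSCR 2, 3 or 4 reduced the 32 calls to 8, 11 or 16, and leaving out si1 2 or si1 3, after which si1 adds nothing to the pooled spread, gave 40.

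CDK1 (ENSG00000170312), the kinase that drives entry into mitosis, shows the pattern. Its normalized count was 76.4 in siSCR 1 against 311, 259 and 290 in siSCR 2 to 4. In si1 it was 41.3 in number 1 against 160 and 144, and in si2 145 against 166, 168 and 185. Number 1 was the lowest library in each group, far from its mates in siSCR and si1 and close to them in si2. The log2 differences were -1.89 (SE 0.21; limma adjusted p = 0.00967) in siSCR, -1.85 (SE 0.22; limma adjusted p = 0.0478) in si1 and -0.25 (SE 0.21; limma adjusted p = 1) in si2.

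NCAPG, a condensin subunit that compacts chromosomes, had 85.6 in siSCR 1 against 317 to 383 in its mates, and 36.0 in si1 1 against 128 and 129. In si2 the order was turned, with 183 in number 1 against 144 to 149. CENPE, the kinesin that carries chromosomes along spindle microtubules, had 64.6 against 230 to 288 in siSCR, 24.6 against 107 and 111 in si1, and 163 against 110 to 140 in si2. For both, the groups overlap nowhere within siSCR and si1, and number 1 lies on the opposite side in si2, where neither difference was called (0.31, SE 0.20, and 0.38, SE 0.24). Exons of LCORL cover 33.1% of the NCAPG exon length, and strand use in counting is not given in the sources used here. KIF20A, the kinesin of the central spindle, had 33.6 in siSCR 1 against 120 to 140, and 8.78 in si1 1 against 79.6 and 80.5.

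The other mitotic genes with wide gaps in siSCR were MYBL2, PLK1, BIRC5, UBE2C, KIF2C and CCNB1. MYBL2, a transcription factor of the MuvB complex, had 129 in siSCR 1 against 817 to 1014, a log2 difference of -2.76 (SE 0.37; limma adjusted p = 0.0143). PLK1, the mitotic polo-like kinase, had 188 against 903 to 1032, and BIRC5, or survivin, had 165 against 683 to 806. UBE2C, the ubiquitin-conjugating enzyme of the anaphase-promoting complex, had 106 against 428 to 518. In si1 number 1 of these 4 genes was again the lowest, at 99.2, 103, 93.1 and 47.4. In si2 number 1 was the lowest for BIRC5 and UBE2C and the highest for PLK1. CEP55 and FAM83D, which act in abscission and in spindle positioning, had 153 against 806 to 937 and 13.4 against at most 141 in siSCR. H2AX, the histone variant marked at DNA breaks, had 30.2 against 151 to 196.

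Promoter sequences of mitotic genes are shown to place these transcripts in their regulatory setting. The windows run from 250 bases before to 50 bases after the RefSeq start on GRCh38.p14, 5′ to 3′ on the gene's strand. The first 4 genes are those of the mitosis list called lower within both siSCR and si1. CCNB2, encoding cyclin B2, and CLSPN, encoding the replication fork protein claspin, were added to show windows with several matches. Capitals mark the CHR string TTTGAA, the CCAAT string and the E2F strings TTTGGCGC and TTTCCCGC on either strand. These strings can share end bases.
CDK1, chr10:60778081-60778380, plus strand: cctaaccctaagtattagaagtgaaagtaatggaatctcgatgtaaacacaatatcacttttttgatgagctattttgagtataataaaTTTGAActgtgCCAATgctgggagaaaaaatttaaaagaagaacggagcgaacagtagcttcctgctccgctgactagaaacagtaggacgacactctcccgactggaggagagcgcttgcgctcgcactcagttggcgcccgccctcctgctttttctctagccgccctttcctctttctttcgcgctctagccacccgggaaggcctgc
CENPE, chr4:103198294-103198593, minus strand: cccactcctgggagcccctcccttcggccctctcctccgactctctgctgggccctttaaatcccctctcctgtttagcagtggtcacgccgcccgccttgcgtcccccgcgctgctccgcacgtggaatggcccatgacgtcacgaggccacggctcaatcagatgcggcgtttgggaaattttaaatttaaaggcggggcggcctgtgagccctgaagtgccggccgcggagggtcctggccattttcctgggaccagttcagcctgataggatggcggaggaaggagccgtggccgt
KIF20A, chr5:138178862-138179161, plus strand: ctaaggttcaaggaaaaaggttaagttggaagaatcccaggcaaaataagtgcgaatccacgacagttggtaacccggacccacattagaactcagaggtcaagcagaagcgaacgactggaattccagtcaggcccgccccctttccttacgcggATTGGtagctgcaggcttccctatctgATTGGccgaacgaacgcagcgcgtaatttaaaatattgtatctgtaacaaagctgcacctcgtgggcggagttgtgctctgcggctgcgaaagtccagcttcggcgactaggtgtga
NCAPG, chr4:17810729-17811028, plus strand: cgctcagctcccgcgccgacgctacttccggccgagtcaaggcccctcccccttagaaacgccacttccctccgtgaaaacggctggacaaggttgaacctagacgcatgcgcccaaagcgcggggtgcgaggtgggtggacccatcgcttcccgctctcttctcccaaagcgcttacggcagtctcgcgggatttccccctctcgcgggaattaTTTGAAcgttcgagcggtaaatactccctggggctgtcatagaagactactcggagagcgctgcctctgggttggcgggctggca
CCNB2, chr15:59104896-59105195, plus strand: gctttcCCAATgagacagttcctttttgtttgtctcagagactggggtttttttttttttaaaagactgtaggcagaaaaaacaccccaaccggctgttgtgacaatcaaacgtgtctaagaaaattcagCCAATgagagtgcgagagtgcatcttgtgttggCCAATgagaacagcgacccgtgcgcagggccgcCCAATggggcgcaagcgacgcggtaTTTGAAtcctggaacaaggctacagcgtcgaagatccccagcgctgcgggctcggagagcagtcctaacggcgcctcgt
CLSPN, chr1:35769929-35770228, minus strand: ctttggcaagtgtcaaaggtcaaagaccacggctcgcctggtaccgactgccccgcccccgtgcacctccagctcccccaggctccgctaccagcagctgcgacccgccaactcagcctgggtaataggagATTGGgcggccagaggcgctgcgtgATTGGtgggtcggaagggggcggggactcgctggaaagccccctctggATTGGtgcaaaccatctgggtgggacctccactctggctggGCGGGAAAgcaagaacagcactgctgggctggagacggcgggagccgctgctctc

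The CHR string was present in the window of 23 of the 34 mitosis genes that had an entry (67.6%), in 1 of 40 S phase genes (2.5%) and in 15.4% of 27305 promoters. The CCAAT string was present in 25 of 34 mitosis genes (73.5%), in 22 of 40 S phase genes (55%) and in 35.7% of all promoters. An E2F string was found in 2 of 34 mitosis genes (5.88%), in 20 of 40 S phase genes (50%) and in 2.31% of all promoters. Among genes called lower within siSCR, 56 of 189 windows held the CHR string (29.6%), and among genes called higher 4 of 96 (4.17%). The tested genes from which these come held it in 9.26% of windows, the CCAAT string in 37.4% and an E2F string in 3.98%. In the windows above, CDK1, NCAPG and CCNB2 each hold 1 CHR string, KIF20A holds 2 CCAAT strings and CENPE holds none of the strings. CLSPN holds 3 CCAAT strings and 1 E2F string.

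S phase and DNA replication genes followed with a smaller shift. All 47 were tested. Within siSCR number 1 was the lowest library for 46 of 47, beside 35.5% of all genes, and the median difference was -1.41. Of the 47, 17 were called lower (2.12% over all genes) and 0 higher. Within si1 number 1 was lowest for 31 of 47 (32.6% over all genes), with a median of -0.57. There 0 were called lower, and 14 were lower at an unadjusted p under 0.05 (715 of 10760 over all genes). In si2 number 1 was lowest for 12 (26.1% over all genes) and highest for 12 (27.2%), with a median of -0.04. RRM2, the small subunit of ribonucleotide reductase, had 89.8 in siSCR 1 against 310, 310 and 316, and 58.0 in si1 1 against 136 and 141. In si2 its counts were 278 in number 1 against 255 to 358. Number 1 is below all mates in siSCR and si1 and inside their range in si2. The log2 difference in siSCR was -1.78 (SE 0.24; limma adjusted p = 0.0138).

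FEN1, the flap endonuclease of Okazaki fragment maturation, had 43.7 in siSCR 1 against 162 to 175, and CLSPN 112 against 369 to 499. GINS4, a subunit of the replicative helicase, had 16 against 64.1 to 87.6. ORC1, the largest subunit of the origin recognition complex, and UHRF1, which guides maintenance DNA methylation, had unlike counts in siSCR and si1. Neither was called in the test of siSCR against si1. ORC1 had 5.04 against 24.4 to 35.3 in siSCR but 9.66 against 6.01 and 11.1 in si1. UHRF1 had 3.36 against 25.6 to 40.6 in siSCR, whereas all 3 si1 libraries lay between 2.63 and 3.01. In si1 number 1 lay between its mates for ORC1. For UHRF1 every si1 library lay below the filter level of 10, too low to show a number 1 effect. Without siSCR 2, 3 or 4 the 17 calls became 2, 3 or 5, without si2 4 they became 5 and without si1 2 or si1 3 they became 27.

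**Figure D3:**
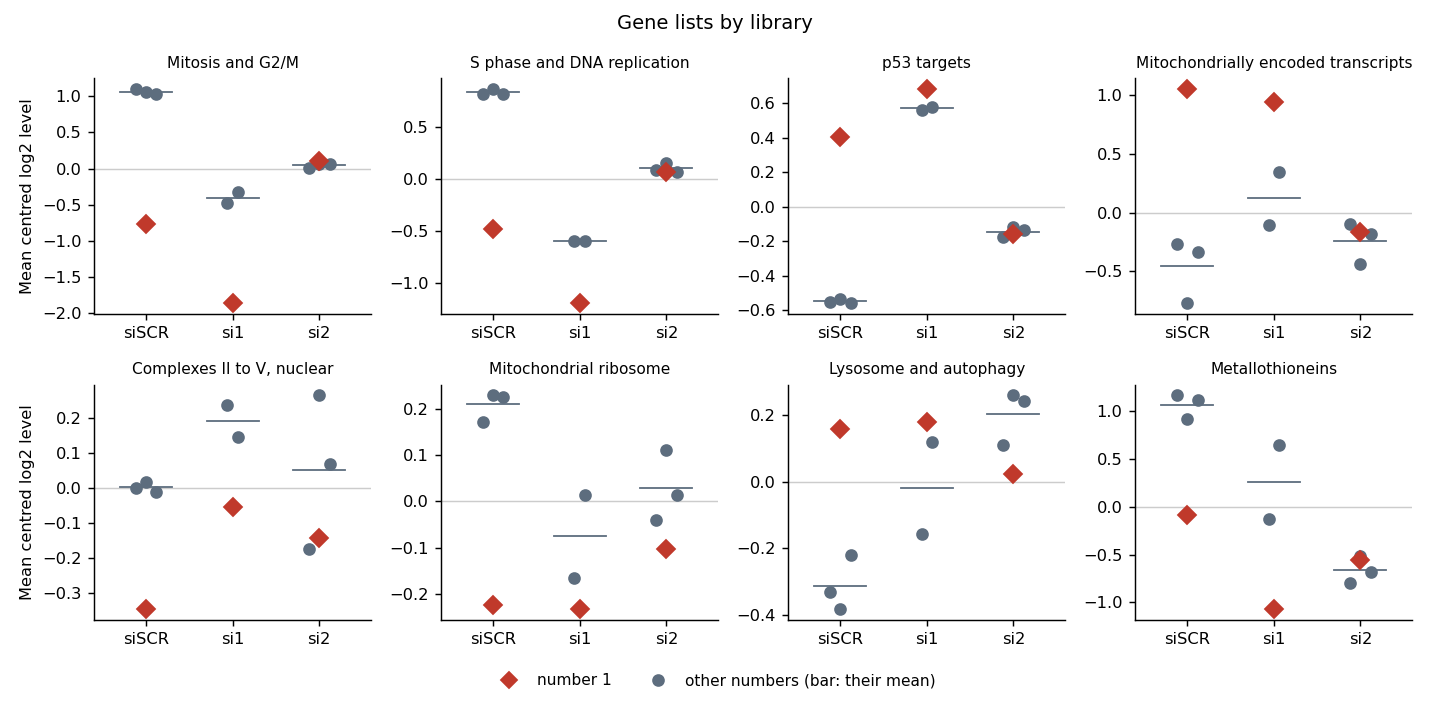
Mean log2 level of the members of 8 gene lists, each member centred on its mean over the 11 libraries, by siRNA group. Red diamonds are the number 1 libraries, grey points the other libraries and bars the means of the latter. For mitosis, siSCR 1 sits at -0.76 against 1.03 to 1.10 and si1 1 at -1.86 against -0.48 and -0.32, while the 4 si2 libraries lie between 0.01 and 0.10.

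Targets of p53 were higher in number 1 within siSCR. Of 30 listed genes 29 were tested, and number 1 was the highest siSCR library for 21 of them (36.1% over all genes). In siSCR the median was 0.92, and 7 were called higher (1.33% over all genes) and 0 lower. Within si1 the median was 0.09 and number 1 was highest for 14 of 29 (34.5% over all genes). Within si2 the median was -0.01 and number 1 was highest for 7 (27.2% over all genes). CDKN1A, or p21 (ENSG00000124762, chromosome 6), had 4349 in siSCR 1 against 892, 948 and 853. In si1 it had 9083 against 5710 and 5846, and in si2 2883 against 2505, 3479 and 2815. In siSCR and si1 number 1 is above every mate, and all 3 si1 libraries exceed siSCR 1. The log2 difference was 2.28 (SE 0.24; limma adjusted p = 0.00889) in siSCR and 0.65 (SE 0.25; limma adjusted p = 0.377) in si1.

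GDF15, a secreted stress cytokine, had 3481 in siSCR 1 against 566 to 621, and 3450 in si1 1 against 1549 and 2598. ZMAT3, an RNA-binding p53 target, had 1188 against 285 to 311 in siSCR. TP53INP1 had 200 against 36.6 to 52.3. RRM2B, the p53-induced ribonucleotide reductase subunit, had 317 against 84.5 to 100.4 in siSCR, but in si1 number 1 at 403 lay between 367 and 501. FDXR, ferredoxin reductase, had 362 against 112 to 131. MDM2, the ubiquitin ligase that degrades p53, completed the 7 called members with a log2 difference of 1.51. None of the 7 was called within si1 or si2. Leaving out siSCR 2, 3 or 4 gave 3 calls in each case.

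**Figure D4:**
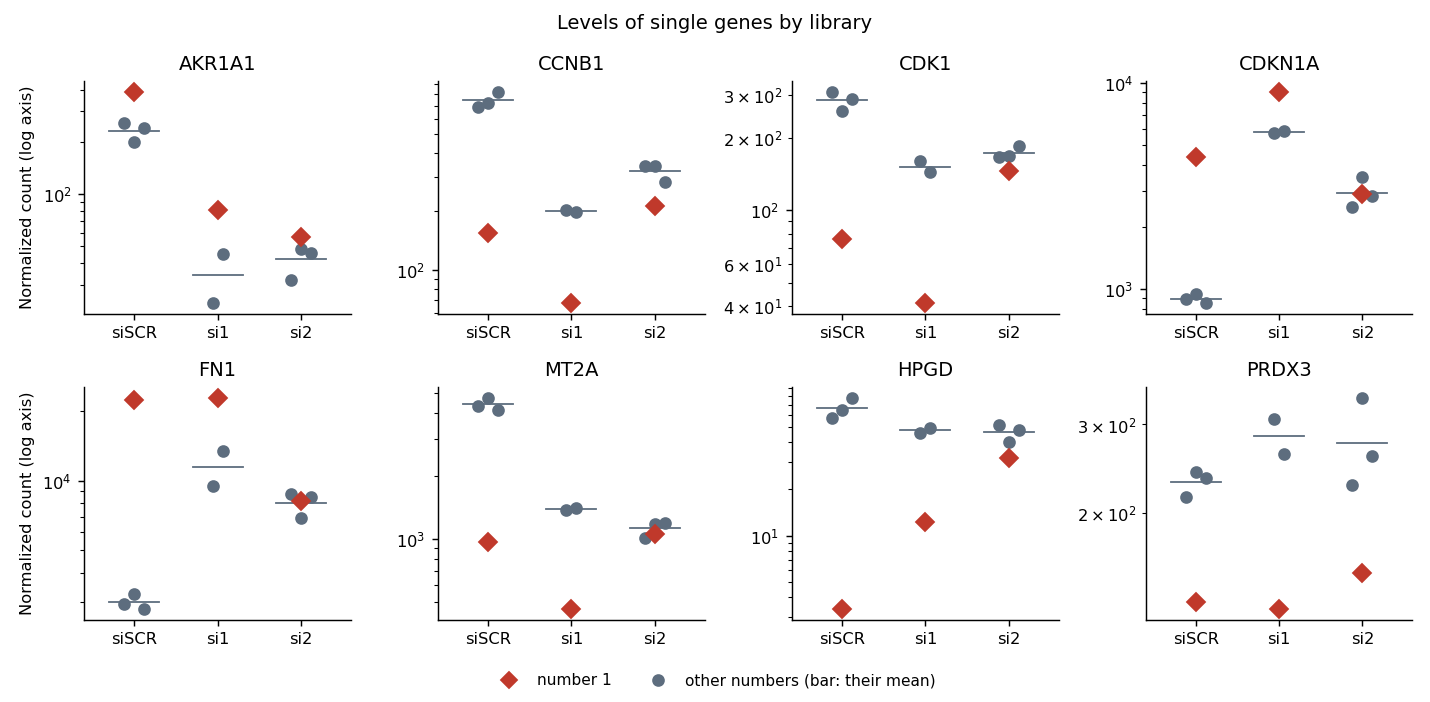
Normalized counts of 8 genes by library on log axes, by siRNA group, with number 1 as red diamonds, the other libraries as grey points and their means as bars. CCNB1, CDK1, HPGD and PRDX3 are lowest in number 1 of all 3 groups. Relative to their mates, MT2A is lowest and CDKN1A and FN1 highest in siSCR 1 and si1 1, and all 3 lie inside the range in si2.

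The share of reads on the 13 mitochondrially encoded messenger RNAs was 12.1% in siSCR 1 (95% Wilson interval 12.1% to 12.2%, counting error only), against 4.46%, 3.46% and 4.28% in siSCR 2 to 4. In si1 it was 11.1% in number 1 against 6.57% and 7.82%, and in si2 5.06% against 5.12%, 4.59% and 4.79%. Number 1 stands well above its mates in siSCR and si1 and inside their range in si2. Averaged over the groups, number 1 exceeded its mates by 4.06 percentage points. The exact permutation test that moves the number within groups gave p = 0.0833 (two-sided, the smaller tail doubled; 48 arrangements allow 0.0417 at the least). The excess was 2.05 points without siSCR 1 and 5.97 points without si2 1. The number 1 libraries of siSCR and si1 were also the deepest of their groups, and in si2, where number 1 was not, the excess was 0.229 percentage points, with number 1 inside the range of its mates; the part of depth in the result was not tested.

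Among the 13 transcripts, number 1 was the highest library for 13 in siSCR, 13 in si1 and 4 in si2. Over all genes these shares were 36.1%, 34.5% and 27.2%. Of the 13, 5 were called higher within siSCR, beside 1.33% over all genes (3 without siSCR 2, 3 or 4, and 8 without si1 2 or si1 3). The medians were 1.57, 0.78 and 0.13 on the log2 scale. MT-CO3, a core subunit of cytochrome c oxidase, had 84406 in siSCR 1 against 19383 to 23239, and 81456 in si1 1 against 47121 and 55611. In si2 it had 21973 against 22353 to 26133. The log2 difference was 1.98 in siSCR (SE 0.22; limma adjusted p = 0.00967). MT-CYB, cytochrome b of complex III, had 27092 against 5697 to 7706 in siSCR. MT-ATP6, a membrane subunit of ATP synthase, had 40799 against 7625 to 11951 in siSCR, 45678 against 22777 and 23707 in si1 and 16599 against 11538 to 12547 in si2, the highest library of each group. MT-ND3 and MT-ND4, complex I subunits, were the other called transcripts, with log2 differences of 1.61 (SE 0.24) and 1.62 (SE 0.32).

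Differences within siSCR for the uncalled transcripts were smallest for MT-ND4L, at 4150 in number 1 against 2548 to 3846 (0.31, SE 0.40), and for MT-ND6, the one messenger of the light strand, at 741 against 258 to 404 (1.10, SE 0.55). MT-CO1 and MT-CO2, the catalytic oxidase subunits, differed by 1.42 (SE 0.33) and 1.57 (SE 0.36). MT-ND1, MT-ND2 and MT-ND5 differed by 1.25, 1.43 and 1.54, and MT-ATP8, which overlaps MT-ATP6, by 1.75. In si1 the 13 differences ran from 0.57 for MT-ND2 to 1.32 for MT-ND6, with none called.

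Nuclear genes for the same organelle did not share the direction. Over all genes, number 1 was the lowest siSCR library for 35.5% and the highest for 36.1%. Of 38 nuclear complex I genes, number 1 was the lowest siSCR library for 26 and the highest for 4, with a median of -0.27. Of 39 genes of complexes II to V it was lowest for 30 and highest for 1, with a median of -0.32. There 1 was called lower (2.12% over all genes). Medians for complexes II to V were -0.24 in si1 and -0.24 in si2. Number 1 was lowest in all 3 groups for 12 of these 39 genes, beside 5.86% of all genes. Of 31 mitochondrial ribosomal proteins it was lowest in siSCR for 27, in si1 for 15 and in si2 for 13, with medians of -0.49, -0.17 and -0.13. Over all genes these shares were 35.5%, 32.6% and 26.1%. None of these 31 was called (0 by limma; 6 lower at an unadjusted p under 0.05 in siSCR).

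CYCS, cytochrome c, was the called member of complexes II to V. Its counts were 201 in siSCR 1 against 382 to 406, 267 in si1 1 against 389 and 395, and 394 in si2 1 against 484 to 502. Number 1 was the lowest library of each group, at 0.51, 0.68 and 0.80 times the mean of its mates. FH, fumarate hydratase of the tricarboxylic acid cycle, had 118 against 234 to 300 in siSCR and 138 against 246 and 275 in si1, and the 4 si2 libraries lay between 173 and 185. PPARGC1A, a coactivator of mitochondrial biogenesis genes, had 34.4 against 81.5 to 94.2 in siSCR. FH and PPARGC1A were also called lower within siSCR, with log2 differences of -1.14 and -1.34. HSPD1, the matrix chaperonin, had 1503 against 2678 to 2905 and was not called (-0.89, SE 0.20; limma adjusted p = 0.0567).

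**Figure D5:**
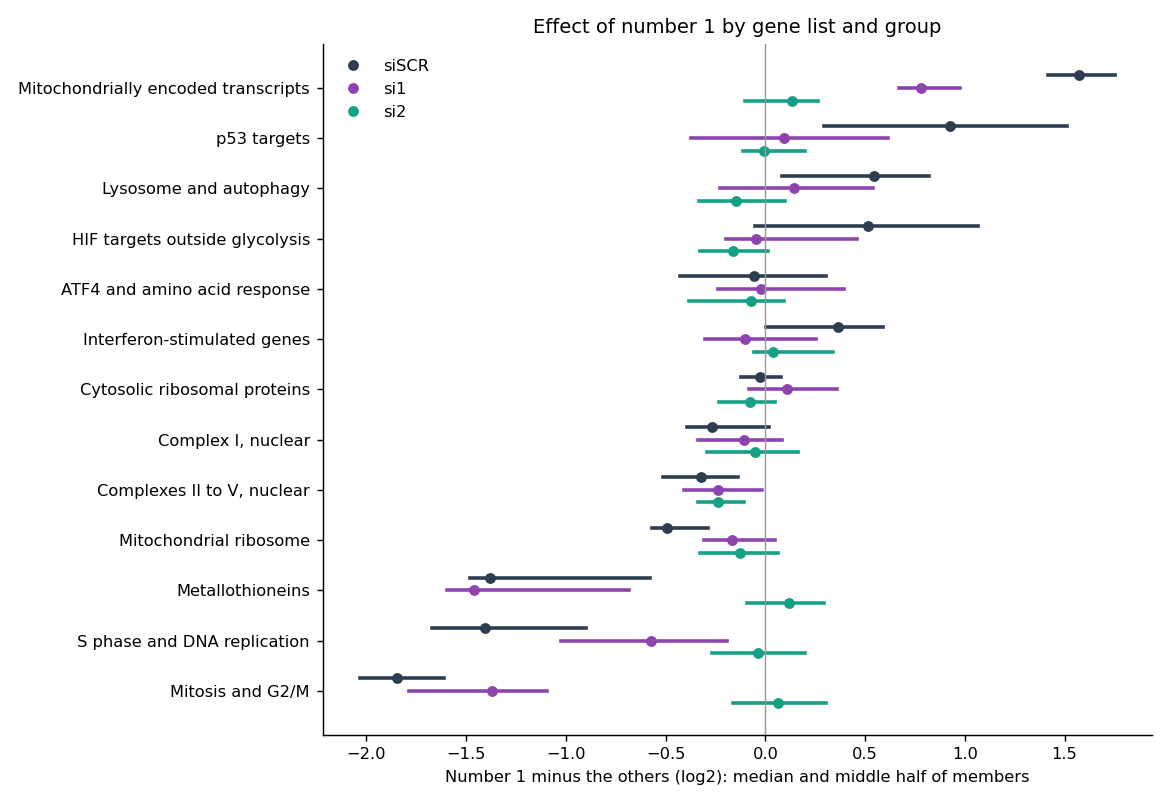
Median (point) and interquartile range (line) over list members of number 1 minus its group mates on the log2 scale, for 13 gene lists in siSCR, si1 and si2. The medians of si2 stay between -0.24 and 0.13, whereas those of siSCR run from -1.85 for mitosis to 1.57 for mitochondrially encoded transcripts.

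Stress programmes differed in how far they followed. Metallothioneins, small proteins that bind zinc and copper, had 5 of 11 listed members tested. Number 1 was the lowest siSCR library for 5 (35.5% over all genes) and the lowest si1 library for 4 (32.6%). Metallothionein genes are close copies, so reads may be shared between them. MT2A had 970 in siSCR 1 against 4140 to 4726, and 461 in si1 1 against 1381 and 1408. In si2 it had 1052 against 1007 to 1186, inside the range. The log2 differences were -2.18 in siSCR (SE 0.21; limma adjusted p = 0.00845) and -1.59 in si1 (SE 0.22; limma adjusted p = 0.0532). Of 31 lysosome and autophagy genes number 1 was the highest siSCR library for 21 (36.1% over all genes). There 2 were called higher (1.33% over all genes), and the median was 0.55. In si1 the median was 0.14, and in si2 it was -0.15, where number 1 was the lowest library for 16 of 31 (26.1% over all genes) and the highest for 5. GABARAPL1, an autophagosome adaptor, had 1588 in siSCR 1 against 281 to 406 and 1400 in si1 1 against 619 and 679, and CTSB, the protease cathepsin B, had 1558 against 706 to 755 in siSCR.

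For 17 tested HIF targets outside glycolysis the siSCR median was 0.52, with 3 called higher (1.33% over all genes): DDIT4, an inhibitor of mTORC1, NDRG1 and MXI1. The medians were -0.05 in si1 and -0.16 in si2. In si2 number 1 was the lowest library for 8 of 17 (26.1% over all genes) and the highest for 1 (27.2%). DDIT4 had 103 in siSCR 1 against 18.3 to 26.5, but in si1 84.3 against 79.1 and 99.2. Its antisense gene covers 41.2% of its exon length. The 27 genes of the ATF4 response split, with 2 called higher and 2 lower in siSCR (1.33% and 2.12% over all genes). Their siSCR median was -0.06. SLC7A5, the large neutral amino acid transporter, had 40.3 in siSCR 1 against 181 to 189 and 41.3 in si1 1 against 107 and 126. SLC7A1, the cationic amino acid transporter, had 169 against 335 to 404, while VLDLR, a lipoprotein receptor, had 71.4 against 26.7 to 35.6. Endoplasmic reticulum chaperones had medians of -0.15 in siSCR and -0.53 in si1, with 0 of 21 called in either (6 and 5 lower at an unadjusted p under 0.05).

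Of 20 cytosolic heat shock genes 1 was called higher in siSCR (1.33% over all genes). It was CRYAB, at 209 against 65.2 to 80.5, while the list median was -0.32. Exons of HSPB2 cover 20.6% of the CRYAB exon length. Interferon-stimulated genes (22 tested), NRF2 targets (27) and NF-kB targets (12) had 0 called in any group, with 3, 2 and 2 higher and 1, 4 and 0 lower at an unadjusted p under 0.05 in siSCR. Their siSCR medians were 0.36, -0.09 and 0.24. Among 16 immediate early genes KLF6 was called, at 1258 in siSCR 1 against 551 to 586. Cytosolic ribosomal proteins, 39 tested, had medians of -0.03, 0.11 and -0.08 and 0 called in any group (0, 3 and 0 higher at an unadjusted p under 0.05). Of 33 MYC and ribosome biogenesis genes number 1 was lowest in siSCR for 25 (35.5% over all genes), with NPM1, nucleophosmin, called at 1773 against 3513 to 4209.

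Of 30 proteasome genes number 1 was the lowest siSCR library for 26 (35.5% over all genes). There 29 differences were below 0, with a median of -0.45 and 0 called (7 lower at an unadjusted p under 0.05). Mitochondrial import factors and chaperones, 25 tested, had a median of -0.50 in siSCR and -0.06 in both si1 and si2. Of 21 G1 genes, CDKN1A was called higher and CKS1B, a cofactor of cyclin-dependent kinases, lower, at 411 in siSCR 1 against 1224 to 1375. Glycolysis, fatty acid oxidation, fatty acid synthesis and cholesterol synthesis had siSCR medians of 0.27, 0.22, 0.12 and 0.08, with 0 called in each (2, 1, 2 and 3 higher and 2, 0, 2 and 2 lower at an unadjusted p under 0.05). Of 12 replication-dependent histones tested, H2AC6 was called higher, at 78.1 against 11.8 to 26.5, while the list median was -0.82.

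By size, the 5 largest rises within siSCR among genes with a level of at least 100 were in CYP3A5, SLFN5, FN1, FBXO32 and LZTS3. FN1, the matrix protein fibronectin, had 22142 in siSCR 1 against 2793 to 3251, and 22722 in si1 1 against 9438 and 13400. In si2 number 1 at 8138 lay within 6899 to 8712. The log2 difference in siSCR was 2.89 (SE 0.27; limma adjusted p = 0.00845). CYP3A5, a drug-oxidizing cytochrome P450, had 130 in siSCR 1 against 9.61 to 24.9. SLFN5, a Schlafen family member, had 178 against 18.2 to 28.5, FBXO32, a ubiquitin ligase subunit of muscle wasting, 146 against 14.4 to 24.6, and LZTS3 287 against 31.4 to 54.0. In si1 number 1 was also the highest for all 5, at 93.1 for CYP3A5, 147 for SLFN5, 429 for FBXO32 and 180 for LZTS3. In si2 number 1 was the highest for CYP3A5 (88.4 against 75.2 to 86.7), SLFN5 (75.2 against 52.5 to 63.4) and FBXO32 (83.1 against 59.4 to 69.5). None of these was called in si2. LZTS3, like FN1, lay inside the range there, at 78.7 against 77.7 to 92.3. BOLA3, an assembly factor of iron-sulfur clusters, was, with FAM83D, MYBL2, CEP55 and H2AX, among the 5 largest falls, at 18.5 in siSCR 1 against 91.6 to 146.

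Of the kidney and clear-cell list, NNMT, nicotinamide N-methyltransferase, had 488 in siSCR 1 against 120 to 126, and ANPEP, an aminopeptidase of the brush border, 340 against 93.7 to 118. LHX1, a transcription factor of kidney development, had 408 against 1073 to 1206. MMP2, a gelatinase held in the fibroblast list, had 29.4 against 9.16 to 13.9 in siSCR, 21.1 against 6.01 and 6.94 in si1, and 38.0 against 23.1 to 25.4 in si2. It was the highest in number 1 of each group. COL1A1, the other tested gene of that list, did not share this. Its level in number 1 was 35.3 against 16.3 to 47.1 in siSCR and 12.3 against 16.5 and 30.5 in si1. In si2 it was 58.4 against 34.7 to 56.2.

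Genes whose number 1 library was extreme in all 3 groups are the nearest to a replicate effect without regard to siRNA, and none was called over the groups (limma adjusted p from 0.116 to 0.15 for the 10 higher and 10 lower with the smallest p and a level of at least 100). PRDX3, the mitochondrial peroxiredoxin, had 133 in siSCR 1 against 215 to 241, 128 in si1 1 against 261 and 308, and 151 in si2 1 against 227 to 339. The genes were picked for lying outside the mates in every group and for a small unadjusted p, so neither trait is a separate result. For PRDX3 the difference over the groups was -0.91 (SE 0.16; limma unadjusted p = 0.000166, limma adjusted p = 0.116). CCNB1, cyclin B1, had 155 against 690 to 827, 67.6 against 200 and 204, and 214 against 284 to 343. PBK, a mitotic kinase, had 52.9 against 190 to 230, 39.5 against 110 and 150, and 70.8 against 102 to 121. HNRNPF, a splicing regulator, had 325 against 697 to 963, 315 against 619 and 656, and 402 against 578 to 643.

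The other lower genes of this kind were KIF2C, a microtubule-depolymerizing kinesin, CEP55, LMNB1, which encodes lamin B1, PCLAF, a partner of the replication clamp, COTL1, which binds actin, and CCNB2. Their differences over the groups ran from -1.81 for KIF2C to -1.16 for COTL1, and in si2 alone from -0.78 for CCNB2 to -0.48 for PCLAF. Differences of the higher genes were smaller. USP42, a deubiquitinase, had 232 against 120 to 132, 198 against 112 and 132, and 220 against 97.7 to 134, a difference of 0.84 (SE 0.14; unadjusted p = 0.000148, limma adjusted p = 0.116). DYNC1H1, the heavy chain of cytoplasmic dynein, had 2293 against 1408 to 1625, 2766 against 1853 and 1907, and 2717 against 1242 to 1603. STAT3, a cytokine-activated transcription factor, had 733 against 375 to 451, 997 against 487 and 607, and 927 against 704 to 803. JMY, MPDZ, FAM114A1, KMT2B, INAFM1 and MINK1 differed by 0.71 to 0.91.

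Transcript length moved weakly with the effect. Genes were put into 5 equal bins by the length of their longest transcript. Among protein-coding nuclear genes, those in the lowest bin (median 1691 bases) had a median number 1 difference of -0.05 over the groups, and those in the highest bin (median 7923 bases) 0.12. In siSCR these medians were -0.12 and 0.15, in si1 0.02 and 0.04 and in si2 -0.06 and 0.11. The mitosis and S phase lists had median lengths of 3344 and 3240 bases, between the second and the third bin, whose siSCR medians were -0.07 and -0.01. Nuclear complex I, complexes II to V and the mitochondrial ribosome had shorter median lengths, of 1349.5, 1587 and 1748 bases. These lie near the median of the lowest bin, and the part of length in the falls of these lists was not tested. By GC content, the si1 medians ran from -0.08 in the lowest bin to 0.23 in the highest. DYNC1H1, MPDZ and KMT2B encode long transcripts; the part of length in their differences was not tested.

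The difference of the number 1 effect between groups was tested directly. Over the 3 groups 3 genes were called (0.0279%): LINC00488, NRG4 and GPRC5A. For siSCR against si2, 4 were called (0.0372%), with HPGD added, for si1 against si2 1, NRG4 (0.00929%), and for siSCR against si1 none (0%; 834 at an unadjusted p under 0.05). No mitosis, S phase, p53 or mitochondrial gene was among them. The median of siSCR minus si2 was -1.84 for mitosis, -1.38 for S phase, 0.78 for p53 targets and 1.42 for mitochondrially encoded transcripts, beside 0.02 over all genes, and this contrast rests on 1 number 1 library in each group. With siSCR 3, siSCR 4, si2 2, si2 3 or si2 4 left out, the count over the 3 groups was 0, and without siSCR 2 it was 2. Leaving out a number 1 library takes its group out of the test. Without si2 1 the test is thus siSCR against si1, as given above. Without si1 2 or si1 3, where si1 keeps 1 library beside number 1, no count is given.

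NRG4, a ligand of the ErbB4 receptor, had no read in siSCR 1 and si1 1 and none in all 4 si2 libraries. No number 1 effect can be measured in si2, and the gene passed the filter on low values through siSCR 2 to 4 and si1 2 and 3, so its difference between groups is a description of those libraries and the pseudocount. With a pseudocount of 5, 0 genes were called for si1 against si2 (732 at an unadjusted p under 0.05). In siSCR 2 to 4 its normalized counts were 12.8, 17 and 21.4, and in si1 2 and 3 30.5 and 27.0. With a floor of 3 reads in the library at 0, siSCR 1 was at least 6.78-fold lower and si1 1 at least 10.9-fold lower than their mates. Exons of FBXO22 cover 38.1% of the NRG4 exon length. The non-coding RNA LINC00488 had 1 read in siSCR 1 and 2 reads in si1 1, against 38 to 69 and 22 and 25 reads in their mates, and 9 to 22 reads in si2. HPGD, which degrades prostaglandins, had 3.36 in siSCR 1 against 57.7 to 77.4, 12.3 in si1 1 against 45.8 and 49.6, and 31.8 in si2 1 against 39.9 to 51.4. GPRC5A, a retinoic acid-induced receptor, had 5.04 against 59.8 to 71.3, 14.9 against 48.1 and 56.9, and 43.3 against 28.9 to 34.7. These 4 were singled out after their values were seen. By the same view of at most 3 reads in one set and a level of at least 10 in the other, ABCA7 and CST6 had the reverse pattern.

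Because siSCR 1 is a control, number 1 also enters the siRNA comparisons. Against all 4 siSCR libraries, 1112 genes were called for si1 (10.3%) and 231 for si2 (2.15%). Without siSCR 1 the counts were 2303 and 750. Leaving out any other library gave 363 to 964 for si1 and 81 to 377 for si2, with the lowest counts without siSCR 4 and siSCR 2. For si1, mitosis genes called lower went from 12 to 38 of 40 without siSCR 1, and S phase genes from 20 to 37 of 47. For si2 they went from 0 to 9 of 40 and from 0 to 11 of 47, and p53 targets called higher from 0 to 6 of 29. Over all 10760 genes, calls rose as well. Those called lower went from 570 to 1162 for si1 and from 81 to 278 for si2. Those called higher for si2 went from 150 to 472. The median mitosis difference for si2 against siSCR moved from -0.57 to -0.97. A single term for number 1 gave 1406 genes for si1 and 331 for si2. The 2 comparisons share the siSCR libraries.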

How the data were processed

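The files hold 1 value per gene and library. The values are log2 of a normalized count plus 1, as the authors deposited them. Per the submitters' processing notes, the tools were cutadapt, FastQC, STAR, HTSeq and DESeq2 on GRCh38; versions, strand use and annotation are not given in the sources used here. From the values themselves, steps between values of low genes gave back whole reads within 0.01, which supply the depths, from 2108546 to 5939514 reads. Of 33080 listed genes, 17626 had a read. The p-value, the fold change and the mean signal of each gene for an siRNA against control, which the authors deposited beside these values, were not used here.

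Genes with a normalized count of at least 10 in at least 3 libraries were kept. limma (version 3.58.1, R 4.3.3) was fitted on log2(normalized count + 1) over 11 libraries, with a term for siRNA group and 1 for number 1 against the rest, and with the number 1 term split by group for contrasts within and between groups. Fold changes are on this log2 scale, which understates changes of low genes. P-values were adjusted by Benjamini-Hochberg over all genes tested. The mitochondrial share was tested by an exact permutation test. Promoter windows are those of RefSeq. Gene positions are on GRCh38. The steps were tested on simulated data. Genes were named by size of difference, by level and by membership of 38 gene lists, with up to 6 called members for S phase, mitosis and p53, up to 4 for other lists, and all 13 mitochondrial messengers. MDM2, GPRC5A, HPGD, NRG4, LINC00488, CDCA3, DEPDC1 and XRCC2 were outside this rule or named after their values were seen. The comparison and the lists were chosen with earlier results of these data known. Some genes are not reported here. Alternatives were another scaling, filter, weighting or pseudocount, a term for the replicate number, and leaving out each library or group.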

Additional observations from a re-analysis of the deposited data

Results flagged for a closer look

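A library was singled out where its gap to the nearest mate, as a share of the whole range of its group, passed the 95% limit of Dixon's test for 4 libraries. Chance gives this in about 1 in 20 groups, and si1 with 3 libraries was not tested. The share of reads on mitochondrial genes of siSCR 1, at 12.1%, passed it. Of 37 gene lists, 10 passed in siSCR, all through siSCR 1, and 2 in si2. The mean centred log2 level of siSCR 1 was -0.48 for S phase genes, -0.76 for mitosis genes, 0.40 for p53 targets, -0.24 for MYC and ribosome biogenesis, -0.18 for nuclear complex I and -0.34 for complexes II to V. It was -0.22 for the mitochondrial ribosome, -0.20 for mitochondrial import and chaperones, 0.25 for HIF targets and -0.20 for the proteasome. In si2 the library that stood apart was number 3, at 0.21 for fatty acid synthesis and -0.99 for leukocyte markers, where CD68 is the 1 gene tested.

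Single genes were looked at among the 125 named, many of which were named because siSCR 1 differed most from its mates, so the chance rate does not apply to them and the number from siSCR 1 (46) is no result. Above its mates in normalized counts, siSCR 1 had CDKN1A at 4349, GDF15 at 3481, TP53INP1 at 199.8, ZMAT3 at 1188, RRM2B at 317, FDXR at 362, FN1 at 22142, NNMT at 488, ANPEP at 340 and CYP3A5 at 130. Of mitochondrial transcripts, MT-ATP6 stood out at 40799, MT-ND2 at 31724, MT-ND3 at 35862, MT-ND4 at 55293, MT-CYB at 27092, MT-CO2 at 43285 and MT-CO3 at 84406. It was also high for SLFN5 at 178, FBXO32 at 146, LZTS3 at 287, USP42 at 232, JMY at 112, MPDZ at 166 and FAM114A1 at 604. Others that stood high were DDIT4 at 103, NDRG1 at 578, CRYAB at 209, FTL at 6795, KLF6 at 1258, B2M at 4321, GABARAPL1 at 1588 and CTSB at 1558. The nuclear RNAs MALAT1 and NEAT1 stood at 14846 and 1289.

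Standing below its mates, siSCR 1 had CEP55 at 153, FEN1 at 43.7, RRM2 at 89.8, PLK1 at 188, DEPDC1 at 58.8 and CKS1B at 411. It was also low for CYCS at 201, HSPD1 at 1503, SLC7A5 at 40.3, MT2A at 970, PSMA7 at 1593 and LHX1 at 408. In si2, number 1 stood apart for NCAPG at 183, MXI1 at 117 and MMP2 at 38.0. Other si2 libraries stood apart for MYBL2 (474 in number 4), H2AX (97.4 in number 4) and CD68 (33.6 in number 3).

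The number 1 effect differed between groups by test for 4 genes. For siSCR minus si2 the log2 difference was -3.89 for GPRC5A (limma adjusted p = 0.0153), -5.44 for LINC00488 (limma adjusted p = 0.0153), -4.15 for NRG4 (limma adjusted p = 0.0301) and -3.42 for HPGD (limma adjusted p = 0.0403). For si1 minus si2 it was -4.89 for NRG4 (limma adjusted p = 0.0337). NRG4 had no read in any si2 library, so its differences depend on the pseudocount of 1 and measure no effect in si2.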

How the results depend on the processing

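Against the 0 genes separating number 1 over all groups, testing without a filter on low values called 9, a minimum level of 50 called 17, a mean trend 140, voom weights 340, the unweighted mean of groups 226 and the fit without the si2 group 125. For the 371 genes within siSCR these filters and weights gave 1011, 695, 801 and 1152. For the 10 within si1, upper-quartile rescaling gave 3, and the same filters and weights 480, 54, 84 and 39. Within si2, testing without a filter gave 340 and voom weights 6. For the 3 genes whose effect differed between groups, the filters and weights gave 1148, 62, 102 and 201, and a pseudocount of 5 gave 0. The cause was not tested. Leaving out 1 library at a time gave 0 to 420 genes over all groups, 48 to 830 within siSCR, 1 to 992 within si1, 0 to 0 within si2, 0 to 477 for the difference, 363 to 2303 for si1 and 81 to 750 for si2 against siSCR, and a mitochondrial excess of 2.05 to 5.97 percentage points. Leaving out siSCR 1 and si1 1 together was an alternative chosen after seeing the data. It leaves si2 1 as the only number 1 library, so it repeats the contrast within si2 and is no separate check. Its medians were 0.06 over mitosis genes and -0.04 over S phase genes. Leave-one-out counts of list members within siSCR were also chosen after seeing the data.

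With the replicate block, 637 genes were called for si1 against siSCR and 209 for si2, beside 1112 and 231. Deviations from group means correlated at 0.0964 to 0.394 between number 1 libraries and -0.0317 to 0.0958 between number 2. For number 3 the range was 0.0354 to 0.164, and for number 4 the value was 0.0839. Of 11 libraries, 7 correlated best with their own number. Not every pair passed 0.1, so the numbers were not taken to pair the libraries. Such a cut cannot tell whether equal numbers share a day or batch. Among named genes, 1875 values over the alternatives stayed on their side of the threshold with the same direction, 145 passed it and 184 lost it, with 0 reversed. Depths of 2108546 to 5939514 reads and 1 library on one side of each within-group contrast limit the precision.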

Other observations

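ABCA7 and CST6 showed the reverse of the NRG4 pattern. ABCA7, a lipid transporter, had 12 reads in siSCR 1 and 26 in si1 1, against 0 to 3 in their mates, and 5 to 22 in si2. CST6, a cystatin protease inhibitor, had 17 and 25 reads against 0 to 3, and 1 to 13 in si2. The reads of these genes overlap nowhere between number 1 and its mates in siSCR and si1, while in si2 number 1 had 7 and 1. These are counts of few reads, chosen after their values were seen, and no test of them is given.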
